A study of Mus musculus with 112 samples.

Results

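Embryoid bodies lacking both RCOR1 and RCOR2 (RCORDKO, here DKO) were compared with wild-type (WT) embryoid bodies by RNA-seq. The members were taken from the sample labels alone and comprised 11 of the 112 libraries of the series, 4 from DKO and 7 from WT embryoid bodies. RCOR1 and RCOR2 are CoREST scaffold proteins that hold the histone H3K4 demethylase LSD1 (gene Kdm1a) together with histone deacetylases. The study examined what LSD1, its catalytic activity and the CoREST scaffolds do as mouse embryonic stem cells (ESCs) differentiate.

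All cells were V6.5 mouse ESCs or their derivatives. The DKO line carried CRISPR deletions in both Rcor1 and Rcor2, and the WT group was the unedited line. ESCs of both genotypes were kept in medium with 2i inhibitors and LIF, which hold them in the naive state. Embryoid bodies (EBs) were then formed in hanging drops in serum medium without 2i and LIF, and were collected at day 6. The replicates were described as coming from independent clones, but the labels do not say which library came from which clone, so p-values measure the spread between these libraries. The Y-linked genes Ddx3y, Eif2s3y and Uty were higher in replicates 2 and 4 than in 1 and 3 of the DKO EBs (Ddx3y at 69.9, 99.7, 64.6 and 99.0 CPM). Kdm5d and Usp9y, also Y-linked, were lower in replicates 2 and 4, and Zfy1 and Zfy2 were mixed. The study's methods name 2 independent clones for RNA-seq, so the 4 DKO libraries may stand for fewer than 4 clones. EBs lacking RCOR1 alone (RCOR1KO, 4 libraries), RCOR2 alone (RCOR2KO, 2 libraries) or LSD1 (LSD1KO, 2 libraries) were made the same way and are used for comparison. The DKO (4 libraries) and WT (8 libraries used) ESCs stand for the state before differentiation.

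In an EB, pluripotent cells leave the naive state, pass through a formative epiblast-like state and form derivatives of the germ layers. Nodal, BMP, Wnt and FGF signals induce the primitive streak programme, led by the T-box factors T and Eomes, which precedes mesoderm and endoderm. LSD1 removes methyl groups from H3K4 at enhancers and promoters, and CoREST proteins join it to nucleosomes and to DNA-binding repressors such as REST. An EB is a mixture of cells, so in these bulk libraries fewer cells of a type and less RNA per cell cannot be told apart.

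Strand-specific reads were counted per gene after ribosomal RNA depletion and removal of duplicates. The 11 libraries held 30146952 to 44401097 counts, with 32615341 to 44401097 in WT and 30146952 to 35280861 in DKO. Levels are given as counts-per-million (CPM) on normalised library sizes, and are not compared between genes, because they are not per length. The ribosomal gene Rn45s took 8.73 to 12.0% of counts. The DKO libraries were closely alike, with 5 to 66 genes differing more than 2-fold within a pair, against 244 to 1647 genes within WT pairs. DKO replicates 1 and 2 differed in 15 genes and replicates 3 and 4 in 5, against 50 to 66 genes across these pairs. WT replicates 1 to 3 stood apart from WT replicates 4 to 7 on the second principal component, which carried 5.78% of the variance against 88.5% on the first, where genotype separated. No library repeated another.

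The targeted genes were checked first. Rcor1 was at 66.9 to 84.5 CPM (median 77.1) in the WT EBs and 4.69, 4.43, 6.64 and 4.64 CPM in the DKO EBs, a log2 fold change of -3.90 ± 0.22 (SE, adjusted p = 1.2e-11). Rcor2 was at 117 to 141 CPM (median 125) in the WT EBs and 2.95, 2.03, 4.93 and 2.41 CPM in the DKO EBs, a log2 fold change of -5.38 ± 0.20 (SE, adjusted p = 1.9e-14). Every DKO library was below every WT library for both genes, as the labels state, and a residue of reads remained. Adjusted p here and throughout is the Benjamini-Hochberg value over the 17928 genes tested, from edgeR's quasi-likelihood test. In RCOR2KO EBs Rcor2 was at 49.0 and 41.7 CPM, and in RCOR1KO EBs Rcor1 was at 11.6, 7.14, 18.4 and 8.71 CPM.

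The third scaffold, Rcor3, also fell, from 17.2 to 24.0 CPM (median 20.4) in the WT EBs to 5.81, 4.95, 5.44 and 6.34 CPM in the DKO EBs, a log2 fold change of -1.87 ± 0.11 (SE, adjusted p = 1.9e-11). The WT and DKO ranges did not overlap. In LSD1KO EBs Rcor3 was at 6.92 and 5.35 CPM. Kdm1a itself was at 175 to 209.6 CPM (median 187) in the WT EBs and 201, 193, 218 and 213 CPM in the DKO EBs, and with a log2 fold change of 0.10 ± 0.07 (SE, adjusted p = 0.20) it did not pass the thresholds of an absolute log2 fold change above 1 with an adjusted p under 0.01. In LSD1KO EBs, Kdm1a was at 6.95 and 6.74 CPM. These are RNA levels, and by Western blot the study reported much reduced LSD1 protein in DKO ESCs. Of the 17 genes of LSD1-CoREST and its partners, the co-repressor Ctbp2 was the member that rose (log2 fold change 1.18 ± 0.08 SE, adjusted p = 6.3e-11), and Rcor1, Rcor2 and Rcor3 were the 3 that fell. Among the 11 recruiting repressors 4 rose and 4 fell. Rest, which silences neuronal genes outside the nervous system, was at 135 to 157 CPM (median 148) in the WT EBs and 323, 286, 370.0 and 346 CPM in the DKO EBs and rose by 1.17 on the log2 scale.

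In DKO EBs, 2530 genes were higher and 2208 lower than in WT EBs, of 17928 tested, so that 26.4% of all genes passed the thresholds (14.1% higher and 12.3% lower). With only WT replicates 1 to 3, which stand apart, as the reference, 2222 genes were higher and 2629 lower. With replicates 4 and 5 they were 2129 and 1942, and with replicates 6 and 7 1637 and 1682. Counts of list members below are read against these shares. The median log2 fold change over all genes was -0.03. The higher genes held more of the large changes: 674 exceeded a log2 fold change of 4 and 243 exceeded 6, against 389 and 160 of the lower genes. The libraries of the groups did not overlap for 2406 of the higher and 1909 of the lower genes, where 43.9% of all genes tested did not overlap (23.6% higher and 20.3% lower).

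**Figure D1:**
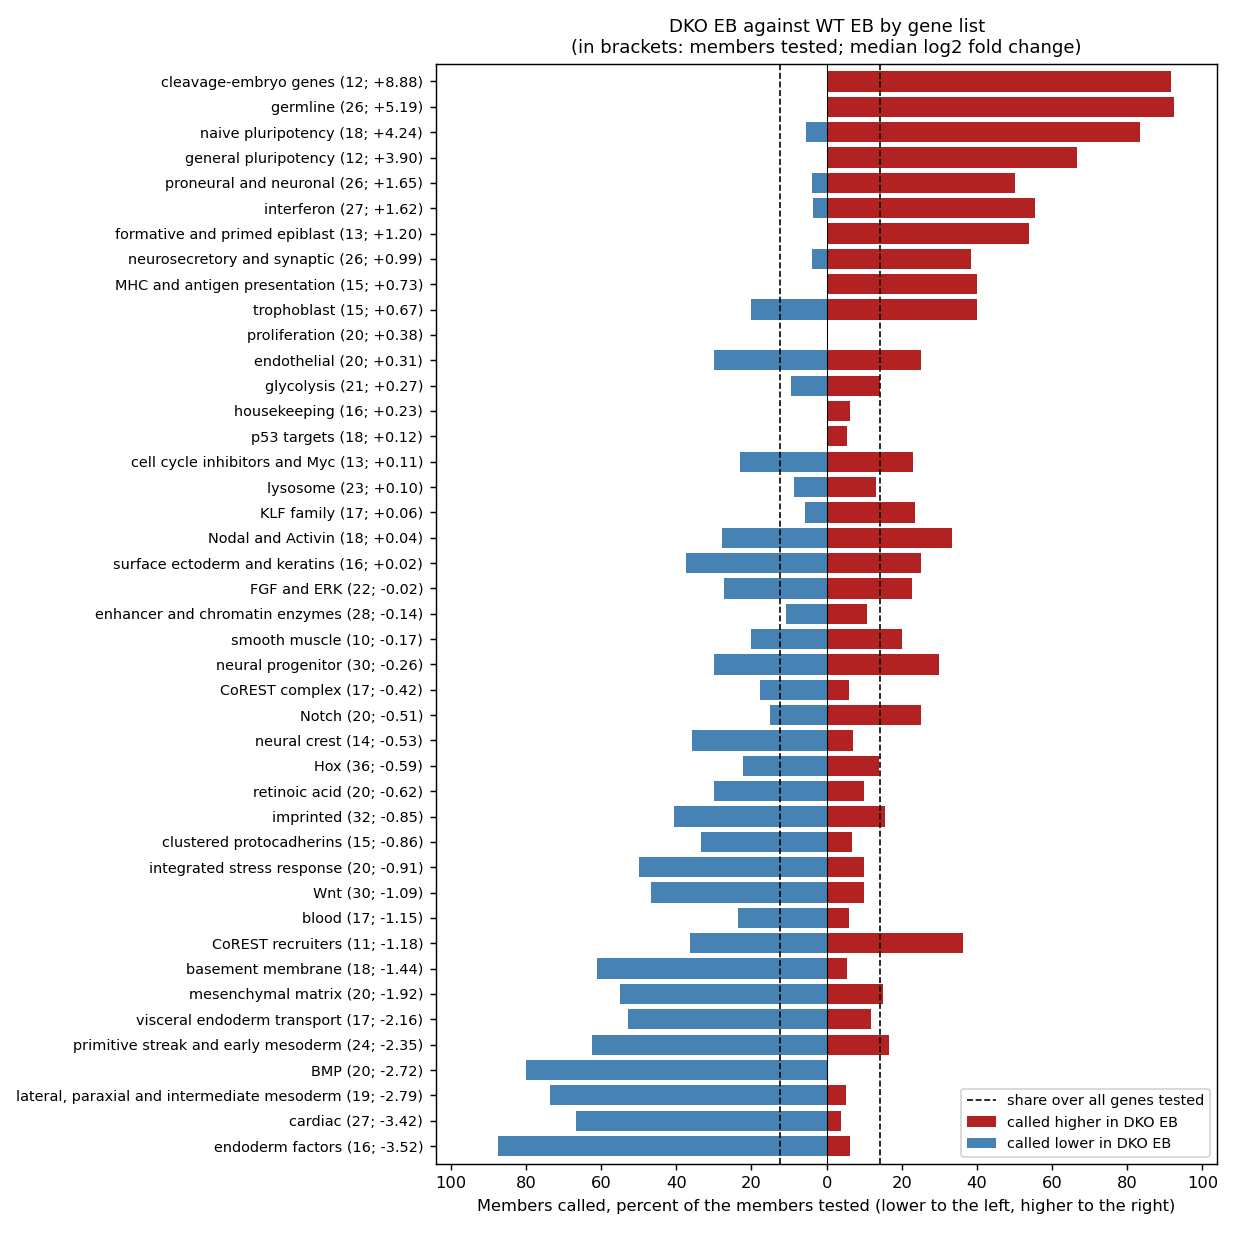
Share of each of 43 gene lists that was called higher (right) or lower (left) in DKO EBs than in WT EBs, in percent of the genes tested (number in brackets), with the list's median log2 fold change; dashed lines mark the shares over all genes. Germline, cleavage-embryo and naive pluripotency genes lie far to the right, and BMP, endoderm, mesoderm and cardiac genes far to the left.

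The markers given for this comparison were Usp26, Aplnr and Esrrb. Usp26, an X-linked deubiquitinase of male germ cells, was at 0 to 0.175 CPM (median 0) in the WT EBs and 59.3, 54.5, 71.7 and 61.6 CPM in the DKO EBs. Aplnr, the apelin receptor of early mesoderm and vessel precursors, was at 24.4 to 108 CPM (median 87.6) in the WT EBs and 0.0572, 0.307, 0.0544 and 0.212 CPM in the DKO EBs. Esrrb, an orphan nuclear receptor of naive pluripotency, was at 0.261 to 7.71 CPM (median 3.76) in the WT EBs and 105, 113, 148 and 121 CPM in the DKO EBs. No DKO library overlapped a WT library for any of them. The log2 fold changes were 10.38 ± 0.53 (SE, adjusted p = 4.5e-12) for Usp26, -8.96 ± 0.73 (SE, adjusted p = 3.0e-09) for Aplnr and 5.04 ± 0.62 (SE, adjusted p = 9.4e-07) for Esrrb. Undifferentiated WT ESCs had a mean of 615 CPM of Esrrb, so the DKO EBs lay between WT EBs and WT ESCs, and 0.0369 CPM of Aplnr.

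**Figure D2:**
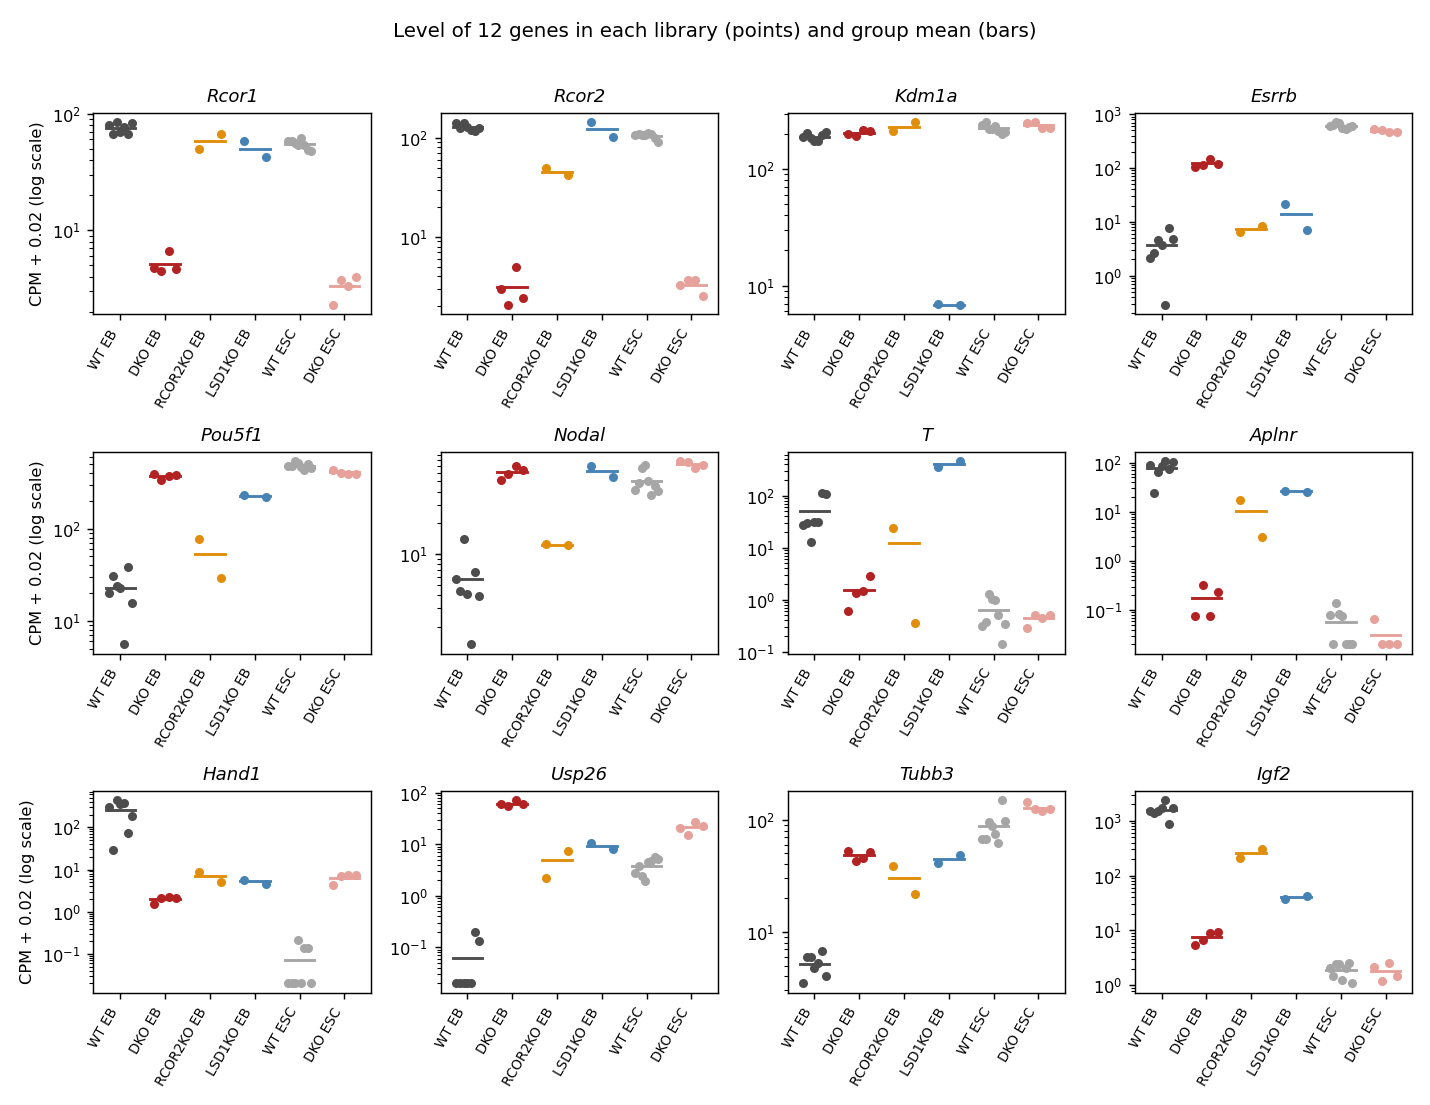
Levels of 12 genes in counts-per-million (log axis, 0.02 added) in EBs of 4 genotypes and in WT and DKO ESCs, with a point for each library and a bar at the group mean. Rcor1 and Rcor2 are low in both DKO groups. Esrrb, Pou5f1, Nodal and Usp26 lie above WT in the DKO EBs, and T, Aplnr, Hand1 and Igf2 below.

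Genes of naive pluripotency were higher in the DKO EBs. Of 18 tested, 15 were higher and 1 lower than in WT EBs, with a median log2 fold change of 4.24. Nr5a2, an orphan receptor that can drive Oct4, was at 0.894 to 2.21 CPM (median 1.59) in the WT EBs and 33.5, 24.8, 27.1 and 23.4 CPM in the DKO EBs (log2 fold change 4.18 ± 0.27 SE, adjusted p = 8.2e-11). Fgf4, the FGF ligand made by pluripotent cells, was at 0.0522 to 2.71 CPM (median 1.28) in the WT EBs and 84.3, 85.4, 112 and 94.0 CPM in the DKO EBs (log2 fold change 6.33 ± 0.53 SE, adjusted p = 4.9e-09). Klf2, a zinc finger factor of the ground state, was at 1.02 to 8.11 CPM (median 4.97) in the WT EBs and 50.7, 49.2, 73.2 and 60.2 CPM in the DKO EBs (log2 fold change 3.63 ± 0.42 SE, adjusted p = 3.3e-07). In all of them each DKO library lay above each WT library.

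Other naive genes that rose, with their log2 fold changes, were Tdh (5.46), Nr0b1 (6.48), Zfp42 (5.40) and Fbxo15 (4.79). Nanog, the homeobox factor of pluripotent cells, was at 4.13 to 53.5 CPM (median 24.7) in the WT EBs and 324, 336, 309 and 291 CPM in the DKO EBs, a log2 fold change of 3.54 ± 0.55 (SE, adjusted p = 1.6e-05). For Nanog every DKO library was above every WT library. The exceptions were the T-box factor Tbx3, which fell by 3.62 on the log2 scale, and Klf4 and Tet2, at 0.84 and 0.67, which did not pass. Tbx3 is also a gene of mesoderm and endoderm.

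Genes shared by naive and primed pluripotent cells were also higher. Of 12, 8 rose and 0 fell, with a median of 3.90. Pou5f1, which encodes Oct4, was at 5.54 to 38.7 CPM (median 22.7) in the WT EBs and 392, 335, 377 and 381 CPM in the DKO EBs (log2 fold change 4.03 ± 0.48 SE, adjusted p = 5.2e-07). Sox2, its DNA-binding partner, was at 6.97 to 103 CPM (median 34.7) in the WT EBs and 190.4, 146, 179 and 164 CPM in the DKO EBs (log2 fold change 2.24 ± 0.55 SE, adjusted p = 0.0017). The DKO and WT libraries did not overlap for either gene. Utf1, Dppa4, Dppa2, L1td1 and Dnmt3l rose too, whereas Sall4, Lin28a and Lin28b did not pass, at -0.11, -0.49 and 0.24. WT ESCs had a mean of 484.6 CPM of Pou5f1, against 371 CPM in DKO EBs.

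The formative epiblast genes, which mark exit from the naive state, were split. 7 of 13 rose, Pou3f1, Dnmt3a, Sox3, Foxd3, Etv4, Etv5 and Tcf15, and 0 fell, with a median of 1.20. Pou3f1, a POU factor of the epiblast and neural plate, was at 1.202 to 17.4 CPM (median 7.41) in the WT EBs and 73.1, 56.2, 73.3 and 72.2 CPM in the DKO EBs (log2 fold change 2.84 ± 0.50 SE, adjusted p = 5.9e-05). Etv5, an ETS factor downstream of FGF, was at 42.9 to 74.4 CPM (median 55.6) in the WT EBs and 342, 315, 381 and 383 CPM in the DKO EBs (log2 fold change 2.69 ± 0.22 SE, adjusted p = 3.0e-09). Fgf5, the usual marker of the primed epiblast, was at 14.4 to 77.7 CPM (median 45.7) in the WT EBs and 60.7, 50.2, 46.0 and 47.7 CPM in the DKO EBs and did not pass (log2 fold change 0.12 ± 0.49 SE, adjusted p = 0.84). The ranges of the groups overlapped for Fgf5. Otx2 and Dnmt3b did not pass either, at -0.44 and 0.76. Naive and formative genes were therefore higher in the same 4 libraries, and whether single cells held both was not measured.

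Nodal and its co-receptor rose, while factors of the primitive streak, which Nodal induces, fell. Nodal, the TGF-beta family ligand that patterns the epiblast, was at 1.33 to 14.1 CPM (median 4.42) in the WT EBs and 51.3, 58.6, 70.4 and 64.4 CPM in the DKO EBs (log2 fold change 3.40 ± 0.41 SE, adjusted p = 6.0e-07). Tdgf1, its co-receptor, was at 12.7 to 71.6 CPM (median 59.0) in the WT EBs and 545, 655, 621 and 624 CPM in the DKO EBs (log2 fold change 3.77 ± 0.60 SE, adjusted p = 1.9e-05). T, the brachyury factor of the streak and nascent mesoderm, was at 12.9 to 111 CPM (median 30.9) in the WT EBs and 0.572, 1.32, 1.47 and 2.81 CPM in the DKO EBs (log2 fold change -5.01 ± 0.94 SE, adjusted p = 0.00012). For all of them the WT and DKO libraries did not overlap.

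Among the 18 Nodal and Activin genes, 6 rose and 5 fell, with a median of 0.04. Of the ligands, Nodal, Gdf3 and Inhbb rose, Gdf3 by 5.97 and Inhbb by 2.85. The feedback inhibitors Lefty1 and Lefty2 rose by 5.94 and 5.06, while Cer1, a secreted inhibitor of Nodal, BMP and Wnt made in anterior endoderm, fell (log2 fold change -7.25 ± 1.03 SE, adjusted p = 5.1e-06). The other genes that fell were Cfc1, a further co-receptor, the receptor Acvr2a, the signal transducer Smad3 and its DNA-binding partner Foxh1. The receptors Acvr1b and Acvr2b and the transducer Smad2 did not pass, at -0.73, -0.93 and -0.62.

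Of 24 streak and early mesoderm genes, 15 fell and 4 rose, with a median of -2.35. Those that rose were Nodal, Lefty1, Lefty2 and Cdx1. Eomes, the T-box factor of the anterior streak, was at 24.998 to 171 CPM (median 85.05) in the WT EBs and 11.4, 9.72, 10.4 and 12.0 CPM in the DKO EBs (log2 fold change -2.90 ± 0.79 SE, adjusted p = 0.0037). Mesp1, which opens the cardiac mesoderm programme, was at 1.92 to 11.6 CPM (median 6.47) in the WT EBs and 0.0572, 0.184, 0.272 and 0.318 CPM in the DKO EBs (log2 fold change -4.84 ± 0.87 SE, adjusted p = 7.4e-05). Kdr, the VEGF receptor of mesodermal precursors, was at 31.7 to 275 CPM (median 156) in the WT EBs and 2.00, 1.23, 2.01 and 1.14 CPM in the DKO EBs (log2 fold change -6.55 ± 0.77 SE, adjusted p = 5.1e-07). The DKO levels of these genes were below every WT library. The Eomes call did not hold without any 1 of the DKO libraries, where its adjusted p was up to 0.013.

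The ligands of the streak fell as well: Fgf8 by 2.69 and Wnt3 by 1.51 on the log2 scale. Further genes that fell were Tbx6 (-1.60), Evx1 (-6.32), Cdx2 (-4.16), Pdgfra (-4.37) and Lhx1 (-6.34). Mixl1, a homeobox factor of the streak, was at 0.670 to 12.2 CPM (median 3.67) in the WT EBs and 1.37, 0.523, 1.63 and 1.80 CPM in the DKO EBs and did not pass (adjusted p = 0.062); Mesp2, Msgn1, Wnt3a and Cdx4 did not pass either. WT replicates 6 and 7 carried more T than the others, 111 and 106 CPM, and T was lower in DKO than in each of the 7.

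**Figure D3:**
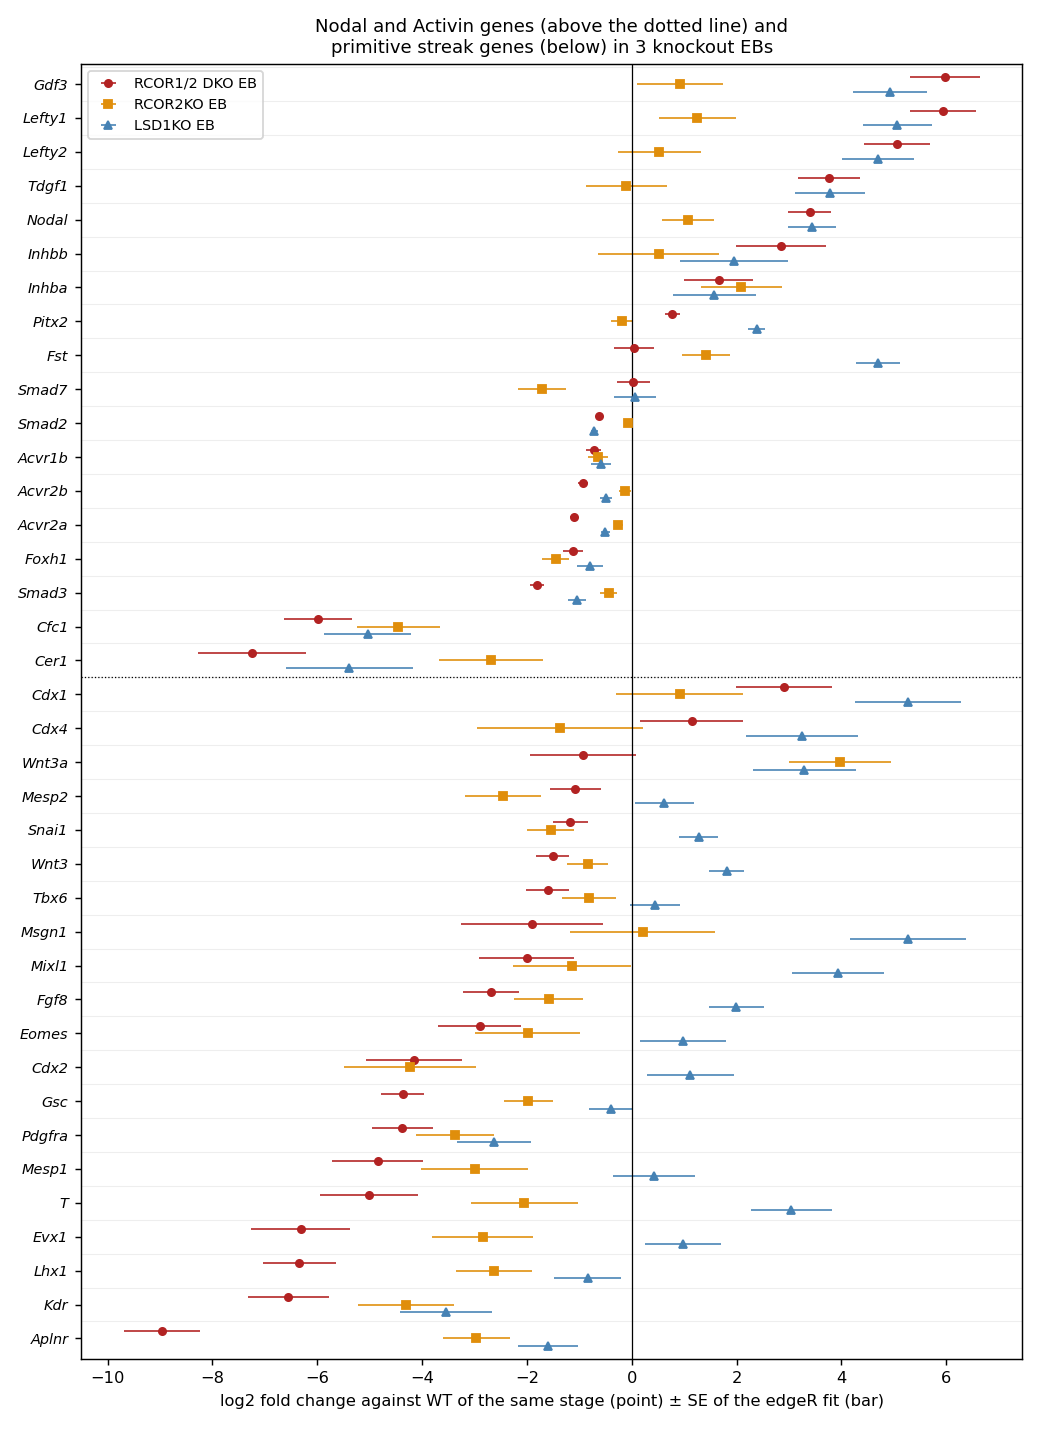
Log2 fold change against WT EBs, with its standard error, of Nodal and Activin genes (above the dotted line) and of streak genes (below it) in DKO, RCOR2KO and LSD1KO EBs, which share the 7 WT libraries. Nodal, Tdgf1 and Lefty1 are to the right in DKO and LSD1KO, whereas T, Eomes and Fgf8 are to the left in DKO and to the right in LSD1KO.

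Genes of mesoderm derivatives were mostly lower. Of 19 factors of lateral, paraxial and intermediate mesoderm, 14 fell and 1, the kidney and mesothelium factor Wt1, rose, with a median of -2.79. Hand1, a bHLH factor of lateral and extra-embryonic mesoderm, was at 28.6 to 438 CPM (median 300.4) in the WT EBs and 1.54, 2.12, 2.26 and 2.12 CPM in the DKO EBs (log2 fold change -6.97 ± 0.83 SE, adjusted p = 6.1e-07). Foxf1, a forkhead factor of lateral plate, was at 6.66 to 89.8 CPM (median 64.3) in the WT EBs and 0.172, 0.246, 0.272 and 0.371 CPM in the DKO EBs (log2 fold change -7.64 ± 0.92 SE, adjusted p = 6.7e-07). Bmp4, a ligand that patterns ventral mesoderm, was at 12.9 to 73.5 CPM (median 61.8) in the WT EBs and 6.26, 8.12, 7.76 and 6.68 CPM in the DKO EBs (log2 fold change -2.79 ± 0.46 SE, adjusted p = 3.2e-05). The 4 DKO libraries lay below the 7 WT libraries for each. Hand2 (-8.36), Osr1 (-5.60), Foxc2 (-5.89) and Tcf21 (-4.77) fell too, and Eya1, Tbx18 and Meox1 did not pass.

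Of 27 cardiac genes 18 fell and 1, the sarcomere gene Actn2, rose, with a median of -3.42. Tbx20 was at 94.5 to 321 CPM (median 264) in the WT EBs and 2.17, 1.35, 2.75 and 1.33 CPM in the DKO EBs (log2 fold change -6.84 ± 0.61 SE, adjusted p = 1.1e-08). Gata4 was at 45.4 to 196 CPM (median 94.8) in the WT EBs and 14.6, 14.0, 16.4 and 16.9 CPM in the DKO EBs (log2 fold change -2.87 ± 0.37 SE, adjusted p = 1.6e-06). WT and DKO ranges for Tbx20 and Gata4 were separate, with DKO below WT. Both encode heart factors. Structural genes of the beating heart split: Myh7, Tnnt2 and Myl3 fell, and Myh6, Tnni3, Actc1, Ryr2 and Ttn did not pass, at -0.61, 0.20, -1.26, -1.16 and -0.68. Summed over the list, levels were 433 to 1316 CPM in the WT and 133 to 140.3 CPM in the DKO EBs.

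Endoderm factors fell in 14 of 16 cases, with a median of -3.52; Pdx1 rose. Sox17 was at 32.1 to 67.8 CPM (median 55.8) in the WT EBs and 0.486, 0.738, 0.408 and 0.742 CPM in the DKO EBs (log2 fold change -6.38 ± 0.61 SE, adjusted p = 2.7e-08). Foxa2, a pioneer factor of endoderm and midline, was at 27.2 to 57.8 CPM (median 44.5) in the WT EBs and 0.172, 0.123, 0.218 and 0.318 CPM in the DKO EBs (log2 fold change -7.69 ± 0.62 SE, adjusted p = 3.0e-09). The 4 DKO libraries lay below all WT libraries for Sox17 and Foxa2. Gata6, shared by endoderm and heart, fell by 7.33, and Hnf4a by 2.13, on the log2 scale. Of 17 secreted and endocytic genes of the yolk sac endoderm, 9 fell and 2 rose. Afp, alpha-fetoprotein, had 2 counts in the DKO libraries together, a ratio of WT to DKO of 83.1 with a counting interval of 14.7 to 3304. Both mates of a pair were counted, so 2 counts are 1 fragment, and intervals and floors were taken over fragments and cover counting error only. Apob, the apolipoprotein of lipid particles, was at 31.4 to 209 CPM (median 47.1) in the WT EBs and 16.0, 18.6, 14.6 and 14.9 CPM in the DKO EBs (log2 fold change -2.16 ± 0.58 SE, adjusted p = 0.0032), with an adjusted p of 0.0021 to 0.011 when 1 library was left out, whereas Apoa2 (4.47) and Trf (5.12) rose.

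Blood and vessel genes changed less uniformly. Of 17 blood genes, 4 fell (Gata2, Runx1, Nfe2, Alas2) and 1 rose (Myb), and Tal1, Lmo2 and Gata1 did not pass. Alas2, the haem synthesis enzyme of red cells, had no count in any DKO library, at least 128-fold lower than in WT when 3 fragments (6 counts) over the DKO group are taken as the floor. Of 20 endothelial genes 5 rose and 6 fell, with a median of 0.31. Pecam1, Eng, Plvap, Cldn5 and Robo4 rose, and Kdr, Aplnr, Flt1, Erg, Fli1 and Sox7 fell. Pecam1, an adhesion protein of vessels and also of ESCs, was at 2.03 to 15.4 CPM (median 7.13) in the WT EBs and 44.1, 41.8, 43.7 and 42.3 CPM in the DKO EBs.

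BMP signalling genes fell with few exceptions: 16 of 20 fell and 0 rose, with a median of -2.72. Of the ligands, Bmp2 was at 35.6 to 56.8 CPM (median 51.7) in the WT EBs and 0.686, 0.553, 0.218 and 0.371 CPM in the DKO EBs (log2 fold change -6.73 ± 0.26 SE, adjusted p = 5.0e-14), and Bmp5 (-7.25) and Bmp7 (-4.11) fell along with Bmp4. The inhibitors Nog, Chrd and Grem1 fell, so did the direct targets Id1, Id2, Id3, Msx1, Msx2 and Smad6. Id3, an inhibitor of bHLH factors that BMP switches on, was at 70.2 to 110.5 CPM (median 88.5) in the WT EBs and 19.8, 16.7, 10.02 and 12.5 CPM in the DKO EBs (log2 fold change -2.64 ± 0.18 SE, adjusted p = 1.6e-10). The groups did not overlap for Bmp2 and Id3. The receptors Bmpr1a and Bmpr2 did not pass, at -0.63 and -0.95, and neither did Id4 and Smad7.

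Of 30 Wnt genes 14 fell and 3 rose, with a median of -1.09. The ligands Wnt3, Wnt5a, Wnt11 and Wnt4 and the receptors Fzd1, Fzd2 and Fzd7 fell. Dkk1, a secreted inhibitor and target, was at 16.8 to 60.4 CPM (median 46.0) in the WT EBs and 0.686, 0.307, 0.381 and 0.371 CPM in the DKO EBs (log2 fold change -6.63 ± 0.42 SE, adjusted p = 7.5e-11). Sp5, a zinc finger target of Wnt, was at 4.02 to 16.8 CPM (median 9.80) in the WT EBs and 0.286, 0.123, 0.490 and 1.06 CPM in the DKO EBs (log2 fold change -4.31 ± 0.56 SE, adjusted p = 1.6e-06). For Dkk1 and Sp5 every DKO library was below every WT library. Axin2, the feedback target read most often for Wnt activity, was at 21.6 to 54.4 CPM (median 42.8) in the WT EBs and 27.1, 26.1, 31.7 and 31.0 CPM in the DKO EBs and did not pass (log2 fold change -0.44 ± 0.24 SE, adjusted p = 0.11); Lef1 and Tcf7 did not pass. Sfrp2, Notum and Cdx1 rose.

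FGF genes moved both ways. Of 22, 5 rose and 6 fell, with a median of -0.02. The pluripotency ligand Fgf4 and the ERK feedback and target genes Dusp6, Spry4, Etv4 and Etv5 rose. The ligands Fgf3, Fgf8 and Fgf10, the receptors Fgfr2 and Fgfr3 and Dusp4 fell. Dusp6, the phosphatase that shuts off ERK, was at 46.5 to 81.4 CPM (median 54.99) in the WT EBs and 164, 204, 174 and 165 CPM in the DKO EBs (log2 fold change 1.56 ± 0.24 SE, adjusted p = 1.1e-05). WT and DKO ranges for Dusp6 were separate, with DKO above WT. In the retinoic acid list 6 of 20 fell, including Cyp26a1, the enzyme that breaks retinoic acid down, by 7.08 on the log2 scale, and 2 rose. In the Notch list 5 of 20 rose and 3 fell.

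Germline genes were higher almost throughout. Of 26 genes of germ cells and meiosis, 24 rose and 0 fell, with a median log2 fold change of 5.19, against 14.1% of all genes higher. Ddx4, the RNA helicase Vasa, was at 0.366 to 1.31 CPM (median 0.807) in the WT EBs and 29.1, 35.0, 34.4 and 38.8 CPM in the DKO EBs (log2 fold change 5.43 ± 0.33 SE, adjusted p = 3.5e-11). Mael, a piRNA pathway protein, was at 0 to 0.0874 CPM (median 0) in the WT EBs and 9.95, 12.0, 11.9 and 11.2 CPM in the DKO EBs (log2 fold change 8.46 ± 0.69 SE, adjusted p = 2.2e-09). Sycp3, a structural protein of the meiotic chromosome axis, was at 0.179 to 0.789 CPM (median 0.437) in the WT EBs and 15.3, 25.5, 22.6 and 21.2 CPM in the DKO EBs (log2 fold change 5.52 ± 0.45 SE, adjusted p = 2.3e-09). The WT and DKO libraries did not overlap for any of them.

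Further germline genes that rose were Dazl (5.89), Hormad1 (7.61), Stk31 (4.96), Tex11 (8.40) and Taf7l (4.36). The exceptions were Tdrd9, at 0.33, and Sycp1, a component of the synaptonemal complex. Sycp1 was at 10.9, 9.16 and 7.74 CPM in WT replicates 1 to 3 and at most 0.114 CPM in WT replicates 4 to 7, with 2.43, 4.27, 4.55 and 3.55 CPM in the DKO EBs, so its log2 fold change of -0.13 depended on which WT libraries were used. Germline genes are methylated at their promoters in somatic cells, and several are bound there by E-box and E2F repressor complexes.

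The promoters of the germline genes were read from the mm9 genome for the 300 bases before the annotated start (17872 of 17928 tested genes had such a window), because the list moved together. The letters CACGTG, an E box and its own reverse complement, occurred in 13 of 26 germline windows and in 8.72% of all windows. Of these 13 genes 11 rose, and the other two, Sycp1 and Tdrd9, were the germline genes not called. They occurred in 7.83% of the windows of all genes that rose. GCGGGA, the core of E2F sites, searched on both strands, occurred in 8 of 26 (30.8%) and in 29.0% of all. Both were found in 4 germline windows (15.4%, against 2.83% of all windows), shown here 5′ to 3′ on the gene's strand with both motifs in capitals. The motifs were chosen after values were seen, and a match is a description of letters, not a bound site.

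Ddx4 (mm9, chr13:113442519-113442818, minus strand): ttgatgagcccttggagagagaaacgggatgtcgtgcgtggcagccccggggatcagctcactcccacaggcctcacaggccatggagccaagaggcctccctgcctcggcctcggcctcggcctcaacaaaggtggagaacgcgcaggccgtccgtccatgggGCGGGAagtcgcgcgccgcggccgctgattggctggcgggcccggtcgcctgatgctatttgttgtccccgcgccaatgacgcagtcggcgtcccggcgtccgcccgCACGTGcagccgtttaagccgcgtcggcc

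Sycp3 (mm9, chr10:87922032-87922331, plus strand): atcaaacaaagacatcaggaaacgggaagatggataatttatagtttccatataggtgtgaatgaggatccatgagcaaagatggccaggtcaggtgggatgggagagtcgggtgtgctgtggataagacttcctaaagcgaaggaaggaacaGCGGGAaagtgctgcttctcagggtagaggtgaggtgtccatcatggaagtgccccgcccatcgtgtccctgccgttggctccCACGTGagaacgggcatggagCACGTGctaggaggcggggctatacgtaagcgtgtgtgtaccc

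Hormad1 (mm9, chr3:95363299-95363598, plus strand): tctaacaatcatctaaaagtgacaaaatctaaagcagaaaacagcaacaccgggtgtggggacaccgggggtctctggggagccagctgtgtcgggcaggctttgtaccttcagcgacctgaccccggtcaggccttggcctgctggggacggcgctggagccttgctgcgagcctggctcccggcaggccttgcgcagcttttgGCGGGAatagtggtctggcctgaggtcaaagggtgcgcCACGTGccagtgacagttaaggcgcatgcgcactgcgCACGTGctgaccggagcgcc

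Mael (mm9, chr1:168168876-168169175, minus strand): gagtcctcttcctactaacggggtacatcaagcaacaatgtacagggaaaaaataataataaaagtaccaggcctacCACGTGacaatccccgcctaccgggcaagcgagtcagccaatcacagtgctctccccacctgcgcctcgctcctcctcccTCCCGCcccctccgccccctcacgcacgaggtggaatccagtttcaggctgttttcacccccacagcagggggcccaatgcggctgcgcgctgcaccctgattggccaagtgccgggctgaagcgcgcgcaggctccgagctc

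Genes of the cleavage embryo and 2-cell-like state were raised by the largest factors. Of 12, 11 rose and 0 fell, with a median of 8.88, or 8.57 with the genes that had no WT count set at their bound. Zscan4d was at 32.9, 31.3, 22.4 and 20.4 CPM in the DKO libraries and had 2 counts over the 7 WT libraries, a ratio of 3711 (counting interval 665 to 146702). Zscan4b had no count in WT and 16.7, 14.5, 13.1 and 9.91 CPM in DKO, at least 632-fold higher with 3 fragments over the WT group as the floor. The Zscan4 copies are nearly identical, so the split of reads among them is uncertain. Zfp352, a retroposed zinc finger gene of the same stage, was at 1.49, 1.54, 1.36 and 1.38 CPM in DKO and had no count in WT. Tcstv3, expressed at the 2-cell stage, was at 0 to 0.0979 CPM (median 0.0571) in the WT EBs and 6.23, 5.96, 4.35 and 3.58 CPM in the DKO EBs (log2 fold change 6.55 ± 0.82 SE, adjusted p = 8.0e-07), and Trim43a, at 0.18, did not pass. Mean levels in WT ESCs were 0.321 CPM of Zscan4d and 0.0507 CPM of Tcstv3, against 26.8 and 5.03 CPM in DKO EBs.

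**Figure D4:**
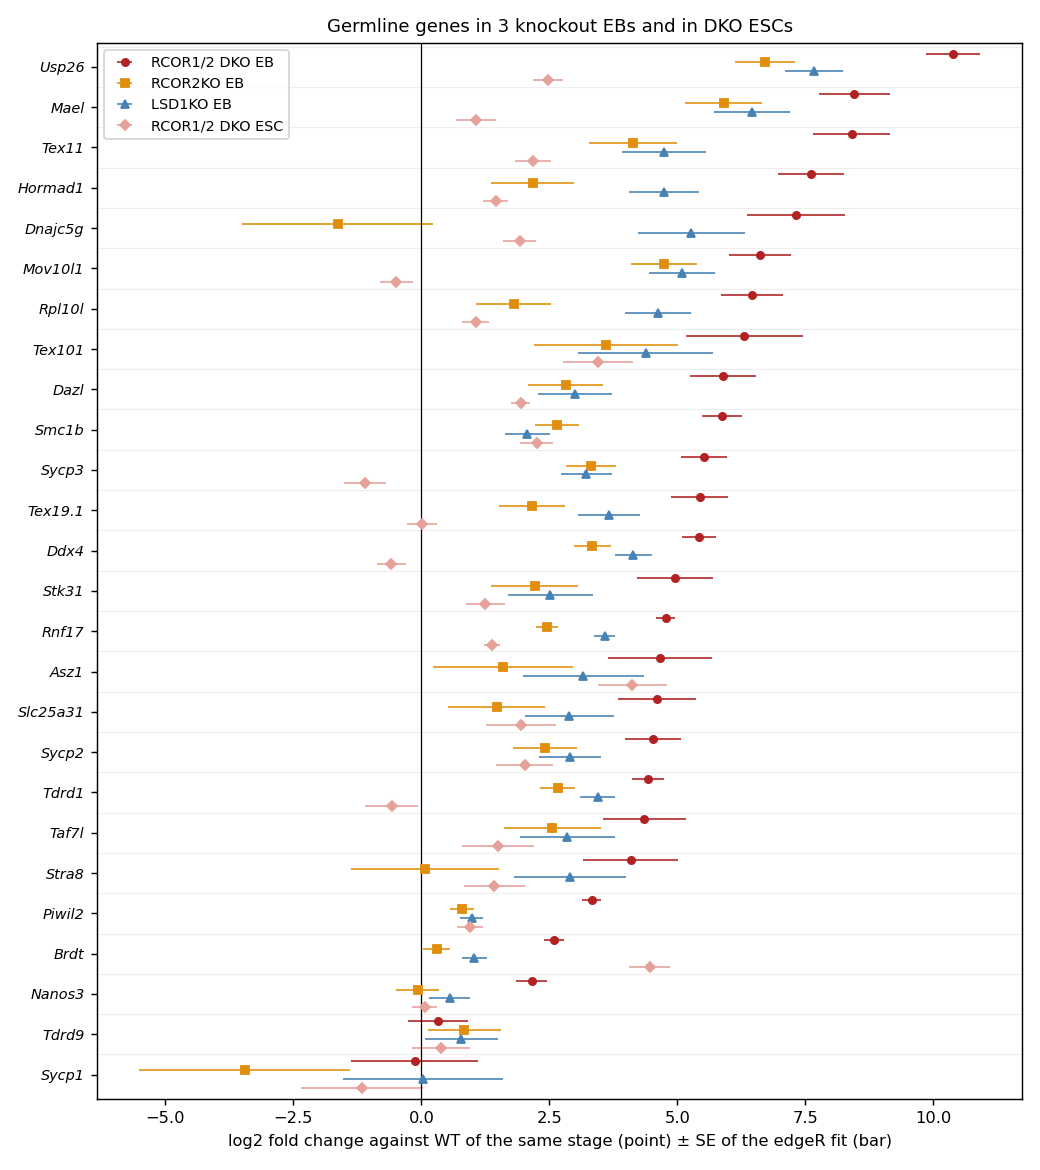
Log2 fold change of 26 germline genes against WT EBs in DKO, RCOR2KO and LSD1KO EBs, which share the WT libraries, and against WT ESCs in DKO ESCs. Points for DKO EBs lie to the right of zero in all but a few genes and mostly beyond the points of RCOR2KO EBs.

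Neuronal genes rose while neural progenitor genes moved both ways. Of 26 proneural and neuronal genes, 13 rose and 1, the LIM factor Isl1 of motor neurons and heart, fell, with a median of 1.65. Nefl, the light neurofilament, was at 2.77 to 7.39 CPM (median 5.96) in the WT EBs and 18.2, 20.0, 20.8 and 27.6 CPM in the DKO EBs (log2 fold change 1.95 ± 0.27 SE, adjusted p = 2.8e-06). Neurod1, a bHLH factor of neuronal differentiation, was at 0.239 to 3.08 CPM (median 0.685) in the WT EBs and 19.02, 13.2, 17.2 and 17.2 CPM in the DKO EBs (log2 fold change 4.03 ± 0.54 SE, adjusted p = 2.0e-06). Tubb3, neuronal tubulin, was at 3.44 to 6.77 CPM (median 5.28) in the WT EBs and 52.3, 43.0, 45.4 and 51.6 CPM in the DKO EBs (log2 fold change 3.21 ± 0.21 SE, adjusted p = 6.3e-11). The groups did not overlap for these 3 genes. WT replicate 2 was richer in neural progenitor genes than the other WT libraries, with 84.5 CPM of Sox1 against 0.522 to 23.5 CPM.

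Of 30 progenitor and patterning genes, 9 rose and 9 fell, with a median of -0.26. En2, Pou3f1, Sox3 and Nes were among those that rose, and Lhx5, Irx3, Six3 and Sox21 among those that fell. The Lhx5 call was lost in 3 of 11 fits with 1 library left out, where its adjusted p was 0.0037 to 0.018. Pax6, a homeobox factor of forebrain and eye, was at 1.46 to 8.09 CPM (median 2.08) in the WT EBs and 17.8, 12.4, 11.7 and 13.3 CPM in the DKO EBs (log2 fold change 1.94 ± 0.55 SE, adjusted p = 0.0049), with an adjusted p of 0.0013 to 0.016 when 1 library was left out. Sox1, which marks neuroepithelium, was at 0.522 to 84.5 CPM (median 15.6) in the WT EBs and 5.52, 6.64, 9.09 and 8.22 CPM in the DKO EBs and did not pass. Of 26 vesicle, synapse and channel genes, many of which are REST targets, 10 rose and 1 fell, with a median of 0.99. Syn1, a coat protein of synaptic vesicles, was at 0.470 to 5.51 CPM (median 1.46) in the WT EBs and 12.2, 10.1, 14.0 and 15.0 CPM in the DKO EBs (log2 fold change 2.30 ± 0.46 SE, adjusted p = 0.00022). Celsr3, an adhesion receptor of axons, was at 5.43 to 16.2 CPM (median 9.36) in the WT EBs and 28.8, 25.1, 32.3 and 32.4 CPM in the DKO EBs (log2 fold change 1.52 ± 0.27 SE, adjusted p = 7.6e-05). The 4 DKO libraries lay above all WT libraries for Syn1 and Celsr3.

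TCAGCACC, the left part of the RE1 element that REST binds, was searched on both strands in the same windows. It occurred in 3 of 26 neurosecretory promoters, those of Syn1, Celsr3 and Syt4 (11.5%), and in 1.47% of all windows; all of these genes rose. The stretch around the match, with the searched letters in capitals, is given for Syn1 and Celsr3 on the gene's strand.

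Syn1 (mm9, chrX:20498248-20498295, minus strand): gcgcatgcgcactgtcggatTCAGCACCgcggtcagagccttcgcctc

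Celsr3 (mm9, chr9:108728230-108728277, plus strand): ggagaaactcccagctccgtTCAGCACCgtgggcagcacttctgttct

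Imprinted genes fell more often than they rose. Of 32 imprinted genes, 13 fell and 5 rose, with a median of -0.85. Igf2, a fetal growth factor, was at 893 to 2380.1 CPM (median 1521) in the WT EBs and 5.35, 6.64, 8.98 and 9.52 CPM in the DKO EBs (log2 fold change -7.71 ± 0.49 SE, adjusted p = 9.2e-11). Peg3, a paternally expressed zinc finger gene, was at 1258 to 2202 CPM (median 1635) in the WT EBs and 445, 325, 407 and 419.6 CPM in the DKO EBs (log2 fold change -2.08 ± 0.15 SE, adjusted p = 4.0e-10). For Igf2 and Peg3 every DKO library was below every WT library. H19, which shares regulatory elements with Igf2, was at 76.7 to 368 CPM (median 115) in the WT EBs and 128, 148, 229.9 and 207 CPM in the DKO EBs and did not pass (log2 fold change -0.14 ± 0.80 SE, adjusted p = 0.89). Meg3 and Rian did not pass, at 0.46 and 0.90, while Dlk1, their neighbour on the same imprinted domain, fell by 2.94 on the log2 scale. Mirg, Snrpn, Magel2, Impact and Dcn rose.

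Of 18 basement membrane genes, 11 fell and 1, the laminin chain Lama3, rose (log2 fold change 6.37 ± 0.36 SE, adjusted p = 1.6e-11), with a median of -1.44. Col4a1, a type IV collagen chain, was at 162 to 377 CPM (median 234) in the WT EBs and 21.7, 21.5, 26.7 and 22.98 CPM in the DKO EBs (log2 fold change -3.57 ± 0.24 SE, adjusted p = 2.1e-10), and its head-to-head neighbour Col4a2 fell by 4.36 on the log2 scale. Of 20 mesenchymal genes, 11 fell and 3 rose, with a median of -1.92. Fn1, fibronectin, was at 1217 to 2364 CPM (median 1862) in the WT EBs and 479, 435, 673 and 611 CPM in the DKO EBs (log2 fold change -1.77 ± 0.18 SE, adjusted p = 4.5e-08), and Col1a2 fell by 2.41.

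Targets of ATF4 in the integrated stress response fell in 10 of 20 cases and rose in 2, with a median of -0.91. Trib3, a pseudokinase induced by ATF4, was at 16.4 to 32.7 CPM (median 21.7) in the WT EBs and 6.15, 4.92, 6.42 and 6.89 CPM in the DKO EBs (log2 fold change -1.90 ± 0.21 SE, adjusted p = 1.8e-07). Asns, asparagine synthetase, was at 321 to 667 CPM (median 405) in the WT EBs and 115, 138, 121 and 121 CPM in the DKO EBs (log2 fold change -1.90 ± 0.23 SE, adjusted p = 6.9e-07). WT and DKO ranges for Trib3 and Asns were separate, with DKO below WT. Interferon-induced genes rose in 15 of 27 cases and fell in 1 (Usp18), with a median of 1.62. Parp14 was at 0.993 to 7.08 CPM (median 3.73) in the WT EBs and 29.3, 33.3, 37.7 and 33.5 CPM in the DKO EBs (log2 fold change 3.19 ± 0.34 SE, adjusted p = 1.1e-07). Bst2, the tetherin of enveloped viruses, was at 6.16 to 30.2 CPM (median 18.0) in the WT EBs and 50.2, 68.5, 69.8 and 57.7 CPM in the DKO EBs (log2 fold change 1.62 ± 0.31 SE, adjusted p = 0.00015). The 4 DKO libraries lay above all WT libraries for Parp14 and Bst2. Isg15, a ubiquitin-like protein of the response, did not pass, at 0.55.

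Lists of general cell function held few genes past the thresholds. Of 20 proliferation genes, 0 rose and 0 fell, with a median of 0.38. All the same, 11 of them had every DKO library above every WT library, where 23.6% of all genes did, and their summed level was 4303 to 5593 CPM in WT and 6174 to 6408 CPM in DKO. 1 of 16 housekeeping genes and 1 of 18 p53 targets rose, and none of either list fell. Glycolysis genes rose in 3 and fell in 2 of 21 cases. By contrast, among 13 cyclins, Myc genes and inhibitors, Ccnd1 (1.47), Cdkn2a (2.33) and Cdkn2b (1.76) rose and Ccnd2 (-4.13), Cdkn1c (-3.17) and Myc (-1.08) fell. Of 36 Hox genes, 5 rose and 8 fell. Of 15 trophoblast genes 6 rose and 3 fell, and markers of this lineage were split, with Plac8, Gcm1 and Esx1 higher and Gata3, Gata2 and Hand1 lower.

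In the lists not yet described, 2 of 10 smooth muscle genes rose and 2 fell (median -0.17), and 1 of 14 neural crest genes rose and 5 fell (median -0.53). For epithelium, 4 of 16 keratin and surface ectoderm genes rose and 6 fell (median 0.02). Further, 6 of 15 antigen presentation genes rose and 0 fell (median 0.73), and 3 of 23 lysosomal genes rose and 2 fell (median 0.10). Among regulators, 4 of 17 KLF factors rose and 1 fell (median 0.06), and 3 of 28 enhancer and chromatin enzymes rose and 3 fell (median -0.14). Klf5, a zinc finger factor of pluripotent cells and epithelia, was at 9.19 to 18.5 CPM (median 16.3) in the WT EBs and 37.6, 32.3, 48.0 and 44.7 CPM in the DKO EBs (log2 fold change 1.44 ± 0.21 SE, adjusted p = 4.8e-06). Tet1, a methylcytosine dioxygenase of ESCs, was at 165 to 237 CPM (median 179.9) in the WT EBs and 900.1, 822, 1044 and 1044 CPM in the DKO EBs (log2 fold change 2.31 ± 0.10 SE, adjusted p = 2.7e-13). For Klf5 and Tet1 every DKO library was above every WT library. Lastly, 1 of 15 clustered protocadherins rose and 5 fell (median -0.86). Of the 11 genes that the study names for LSD1, 8 rose and 0 fell. They were chosen on samples of this series and are not independent evidence of direction.

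The largest changes among genes that averaged 5 CPM or more in either genotype, without overlapping libraries, held many genes at or near 0 in one of the groups. Higher, beside the Zscan4 copies and Usp26, were Tmem92, a transmembrane protein gene with no WT count and 10.4, 14.3, 11.8 and 7.71 CPM in DKO (at least 515-fold), and Usp17lb, one of several near-identical deubiquitinase copies whose reads can be split (at least 321-fold). H2ac1, a histone gene of the testis, was at 0 to 0.0597 CPM (median 0.0478) in the WT EBs and 23.9, 23.9, 16.7 and 24.0 CPM in the DKO EBs (log2 fold change 9.42 ± 0.51 SE, adjusted p = 5.9e-12). Lower were Hand2os1, the antisense neighbour of Hand2, which had no DKO count and 2.52 to 17.5 CPM (median 11.6) in WT (at least 266-fold lower), and Tdo2, tryptophan dioxygenase, at least 176-fold lower. Rtl1, an imprinted retrotransposon-derived gene beside Dlk1, had 2 DKO counts, a WT to DKO ratio of 1133 (counting interval 203 to 44774). Nrp1, a receptor of VEGF and semaphorins, was at 96.0 to 675 CPM (median 580.2) in the WT EBs and 1.89, 1.14, 1.198 and 1.25 CPM in the DKO EBs (log2 fold change -8.41 ± 0.69 SE, adjusted p = 3.4e-09), and Shh, the hedgehog ligand of notochord and endoderm, fell by 8.13 on the log2 scale.

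The most abundant genes that rose included Rif1, a telomere and replication timing factor, at 349.7 to 644 CPM (median 478) in the WT EBs and 1134, 1156, 1106 and 1137 CPM in the DKO EBs (log2 fold change 1.21 ± 0.13 SE, adjusted p = 9.1e-08). Phc1, a Polycomb subunit, was at 119.9 to 156 CPM (median 138) in the WT EBs and 993, 904, 1134 and 1068 CPM in the DKO EBs (log2 fold change 2.90 ± 0.11 SE, adjusted p = 5.0e-14). WT and DKO ranges for Rif1 and Phc1 were separate, with DKO above WT. Hsp90aa1, a heat shock chaperone, was at 755 to 1509 CPM (median 992) in the WT EBs and 2628, 3019, 2605 and 2663 CPM in the DKO EBs (log2 fold change 1.41 ± 0.15 SE, adjusted p = 7.1e-08), and Ftl1, ferritin light chain, rose by 1.34 on the log2 scale. The most abundant genes that fell were Fn1, Peg3 and Igf2, given above, with Emb, Ahnak, Amot, Prtg and Grb10. Prtg, an adhesion protein of the early neural tube and mesoderm, was at 867 to 1310.2 CPM (median 1262) in the WT EBs and 177, 177, 181 and 183 CPM in the DKO EBs (log2 fold change -2.73 ± 0.13 SE, adjusted p = 9.0e-13).

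The single knockouts were set beside the double to compare the loss of each scaffold with the loss of both. Rcor2 RNA was itself lower in the DKO than in the RCOR2KO EBs, as given above, so these groups do not differ in Rcor1 alone. All comparisons with WT share the 7 WT EB libraries. By edgeR, RCOR1KO EBs had 0 genes higher and 1 lower, Rcor1 itself (0.00558% of genes; 1769 genes had an unadjusted p below 0.05). RCOR2KO EBs had 390 higher and 556 lower (2.18% and 3.1% of genes), from 2 libraries, of which replicate 2 had 0.343 CPM of T against 24.1 in replicate 1. Tested directly, DKO differed from RCOR1KO EBs in 2289 genes higher and 1968 lower (12.8% and 11%), and from RCOR2KO EBs in 1081 higher and 1052 lower (6.03% and 5.87%). Without RCOR2KO replicate 2 the latter had 488 genes higher, and without replicate 1 it had 550.

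Naive pluripotency genes differed between the double and the RCOR2 knockout. RCOR2KO EBs had 0 of 18 naive genes higher than WT and 2 lower, and 10 were higher in DKO than in RCOR2KO EBs. Esrrb was at 6.48 and 8.49 CPM in RCOR2KO EBs, a DKO difference of 4.04 ± 1.01 (SE, adjusted p = 0.0044). Pou5f1 was at 77.3 and 29.5 CPM (log2 fold change 2.81 ± 0.75 SE, adjusted p = 0.0067). Germline genes were higher in RCOR2KO EBs in 9 of 26 cases, and 13 were higher still in DKO. Usp26 was at 2.23 and 7.54 CPM in RCOR2KO EBs (log2 fold change 3.67 ± 0.60 SE, adjusted p = 9.6e-05 for DKO less RCOR2KO). With 1 library left out, the adjusted p of these differences was 0.0072 to 0.059 for Esrrb and 0.010 to 0.11 for Pou5f1.

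Cardiac and endoderm factors were low in both genotypes. In RCOR2KO EBs 12 of 27 cardiac genes and 9 of 16 endoderm factors were lower than in WT, with medians of -3.86 and -3.92. DKO differed from RCOR2KO in some cardiac genes, 3 higher and 4 lower. BMP genes were lower in 6 of 20 cases in RCOR2KO, and 10 were lower in DKO than in RCOR2KO. Neural progenitor genes went the other way: 6 were higher in RCOR2KO than in WT, none lower, and 11 of 30 were lower in DKO than in RCOR2KO. Lhx5, a forebrain LIM factor, was at 21.7 and 16.0 CPM in RCOR2KO and 0.0572, 0, 0.109 and 0 CPM in DKO EBs (log2 fold change -8.68 ± 1.61 SE, adjusted p = 0.00036). Wnt1, a ligand of the midbrain border, differed by -11.54 ± 2.31 (SE, adjusted p = 0.00098).

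RCOR2KO EBs kept more Rcor2 RNA than DKO EBs, which the interaction term also includes, and its part was not tested. That term asks whether the double knockout departs from the sum of the single knockouts on the log2 scale. It passed for 778 genes above and 810 below the sum (8.86% of genes tested, 4.34% and 4.52% in the directions given). Without RCOR2KO replicate 2 it passed for 318 above and 547 below, and without replicate 1 for 399 and 687, whereas DESeq2 gave 1303 and 925. The pluripotency ligand Fgf4 was above the sum, by 5.05 ± 0.98 (SE, adjusted p = 0.00096), with Lefty1 at 4.37, Etv5 at 4.03 and Dnmt3a, a DNA methyltransferase, at 2.05. Below the sum were Aplnr at -6.13 ± 0.89 (SE, adjusted p = 6.1e-05), Igf2 at -4.69, Dkk1 at -4.49, Bmp2 at -3.56, Col4a1 at -2.51 and Lhx5 at -8.14. Among the largest were Egfl6, a secreted EGF-repeat protein, at 8.03, and the skeletal actin Acta1 at -7.45. Esrrb, Usp26, T, Pou5f1, Nodal, Kdr and Hand1 did not pass, with values of 3.52, 3.42, -3.62, 3.15, 2.31, -2.11 and -1.44. With 1 library left out, the adjusted p of the interaction was 0.00071 to 0.016 for Fgf4 and 0.0081 to 0.060 for Lefty1.

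DKO and LSD1KO EBs were compared directly, loss of the scaffolds against loss of the enzyme. The study reported much less LSD1 protein in DKO ESCs by Western blot, so the comparison may not separate these losses. LSD1KO EBs had 1484 genes higher and 972 lower than WT (8.28% and 5.42% of genes), and DKO differed from LSD1KO EBs in 324 genes higher and 692 lower (5.67% in all, 1.81% and 3.86%). Each LSD1KO value rests on 2 libraries, and without replicate 2 the counts were 93 and 384, and without replicate 1 they were 204 and 446. Streak genes differed in most cases: 9 of 24 were higher and 3 lower in LSD1KO than in WT, and 14 were lower in DKO than in LSD1KO EBs. In Xist, the RNA of X inactivation, the LSD1KO libraries (15.5 and 8.05 CPM) were near WT replicates 1 to 3 (9.62 to 14.9 CPM) and above WT replicates 4 to 7 (0.836 to 2.63 CPM) and the DKO libraries (0.915 to 1.91 CPM), and the part of that split in this comparison was not tested. The Wnt list had 15 of 30 lower in DKO than in LSD1KO.

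T was at 361 and 461 CPM in LSD1KO EBs and 0.572, 1.32, 1.47 and 2.81 CPM in DKO EBs (log2 fold change -8.05 ± 1.12 SE, adjusted p = 4.0e-05). Eomes was at 150.2 and 168 CPM in LSD1KO EBs (log2 fold change -3.88 ± 0.94 SE, adjusted p = 0.0058). Mixl1 was at 73.1 and 91.4 CPM (log2 fold change -5.94 ± 1.16 SE, adjusted p = 0.0010). For T the LSD1KO libraries were above every WT library, and for both T and Eomes the DKO libraries were below every WT library. Without 1 library the Eomes difference had an adjusted p of 0.016 to 0.035, and T passed in every such fit. Fgf8 (-4.69), Wnt3 (-3.33), Sp5 (-7.01), Aplnr (-7.36) and Evx1 (-7.29) were likewise lower in DKO than in LSD1KO EBs. Nodal and Tdgf1, by contrast, were high in both. The Nodal and Activin list had 7 of 18 genes higher and 3 lower in LSD1KO than in WT EBs, against 6 and 5 in DKO. Nodal was at 70.2 and 55.7 CPM and Tdgf1 at 548 and 680.2 CPM in LSD1KO EBs, differences from DKO of -0.04 ± 0.55 and -0.01 ± 0.81 (SE) that did not pass.

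Other groups are given in the same way. In naive pluripotency 8 of 18 genes were higher and 2 lower in LSD1KO than in WT EBs, and 3 were higher in DKO than in LSD1KO. Esrrb was at 21.0 and 6.93 CPM in LSD1KO EBs and the DKO difference of 3.13 ± 0.95 (SE, adjusted p = 0.024) did not pass. Germline genes were higher in LSD1KO in 16 of 26 cases and higher in DKO than in LSD1KO in 6. Usp26 was at 10.7 and 7.999 CPM (log2 fold change 2.72 ± 0.56 SE, adjusted p = 0.0017), with an adjusted p of 0.0040 to 0.044 when 1 library was left out. Proneural genes were higher in 12 of 26 cases in LSD1KO, and 1 was lower in DKO than in LSD1KO. BMP genes were lower in 8 of 20 cases in LSD1KO and lower in DKO than in LSD1KO in 8. Of 12 cleavage-embryo genes, 9 were higher than in WT in LSD1KO EBs and 7 in RCOR2KO EBs. In DKO 1 of them was higher than in LSD1KO EBs. Cardiac genes were lower than in WT in 15 of 27 cases in LSD1KO and higher in 2. Endoderm factors were lower in 10 of 16 cases and higher in 0.

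The effect of the double knockout was then compared between EBs and the ESCs from which they were made, which share no library. DKO ESCs had 1821 genes higher and 903 lower than WT ESCs (10.5% and 5.19% of 17387). Of 17097 genes tested in both, 748 were higher in both states, 30.6% of those higher in EBs and 43.1% of those higher in ESCs. Lower in both were 337, 15.5% of those lower in EBs and 37.6% in ESCs. A further 93 of the 2442 genes higher in EBs were lower in ESCs, and 245 of the 2171 lower in EBs were higher in ESCs. Over all genes in ESCs 5.19% were lower and 10.5% higher, so neither count was far from its share. The effects themselves differed, by the interaction of genotype and state with p adjusted over the 17387 genes, for 1757 genes more positive and 1725 more negative in EBs (10.1% and 9.92% of genes).

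Naive pluripotency genes were near WT levels in DKO ESCs. Of the naive genes 0 were higher and 1 lower in DKO than in WT ESCs, with a median of -0.11. Of 12 genes shared by naive and primed cells, 2 were higher and 1 lower, with a median of 0.32. Esrrb averaged 615 CPM in WT and 495 CPM in DKO ESCs, and its effect was larger in EBs by 5.35 ± 0.49 (SE, adjusted p = 1.1e-08). For Pou5f1 the difference of effects was 4.28 ± 0.38 (SE, adjusted p = 6.7e-09). Germline genes were higher in DKO ESCs in 12 of 26 cases and cleavage-embryo genes in 10 of 13. Usp26 averaged 3.86 CPM in WT and 21.4 CPM in DKO ESCs, with an effect larger in EBs by 7.90 ± 0.61 (SE, adjusted p = 5.9e-10).

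The mesoderm, endoderm and matrix lists, mostly lower in DKO EBs, held some genes higher in DKO ESCs, where 10.5% of all genes were higher. Whether these were the same genes was not counted over the lists. Of 19 lateral, paraxial and intermediate mesoderm factors, 3 were higher and 0 lower in DKO ESCs. Of 23 streak and early mesoderm genes, 2 were higher and 1 lower. Hand1 averaged 0.0532 CPM in WT ESCs and 6.42 CPM in DKO ESCs (log2 fold change 6.89), against -6.97 in EBs, a difference of -13.86 ± 1.02 (SE, adjusted p = 3.2e-10). Nrp1 and Igf2 differed by -11.39 and -7.67, and for Igf2 this was close to its effect in EBs alone (-7.71). Endoderm factors were higher in 5 and lower in 2 of 16 cases in DKO ESCs, matrix genes in 11 and 1 of 20, and Hox genes in 15 and 0 of 35. BMP genes were higher in 2 and lower in 3 of 20 cases in DKO ESCs, with a median of 0.52 in ESCs against -2.72 in EBs. Aplnr did not pass the test of the difference, at -7.51, and ESC levels of it averaged 0.0369 CPM in WT and 0.0112 CPM in DKO. Interferon genes were higher in 7 of 27 cases in DKO ESCs.

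**Figure D5:**
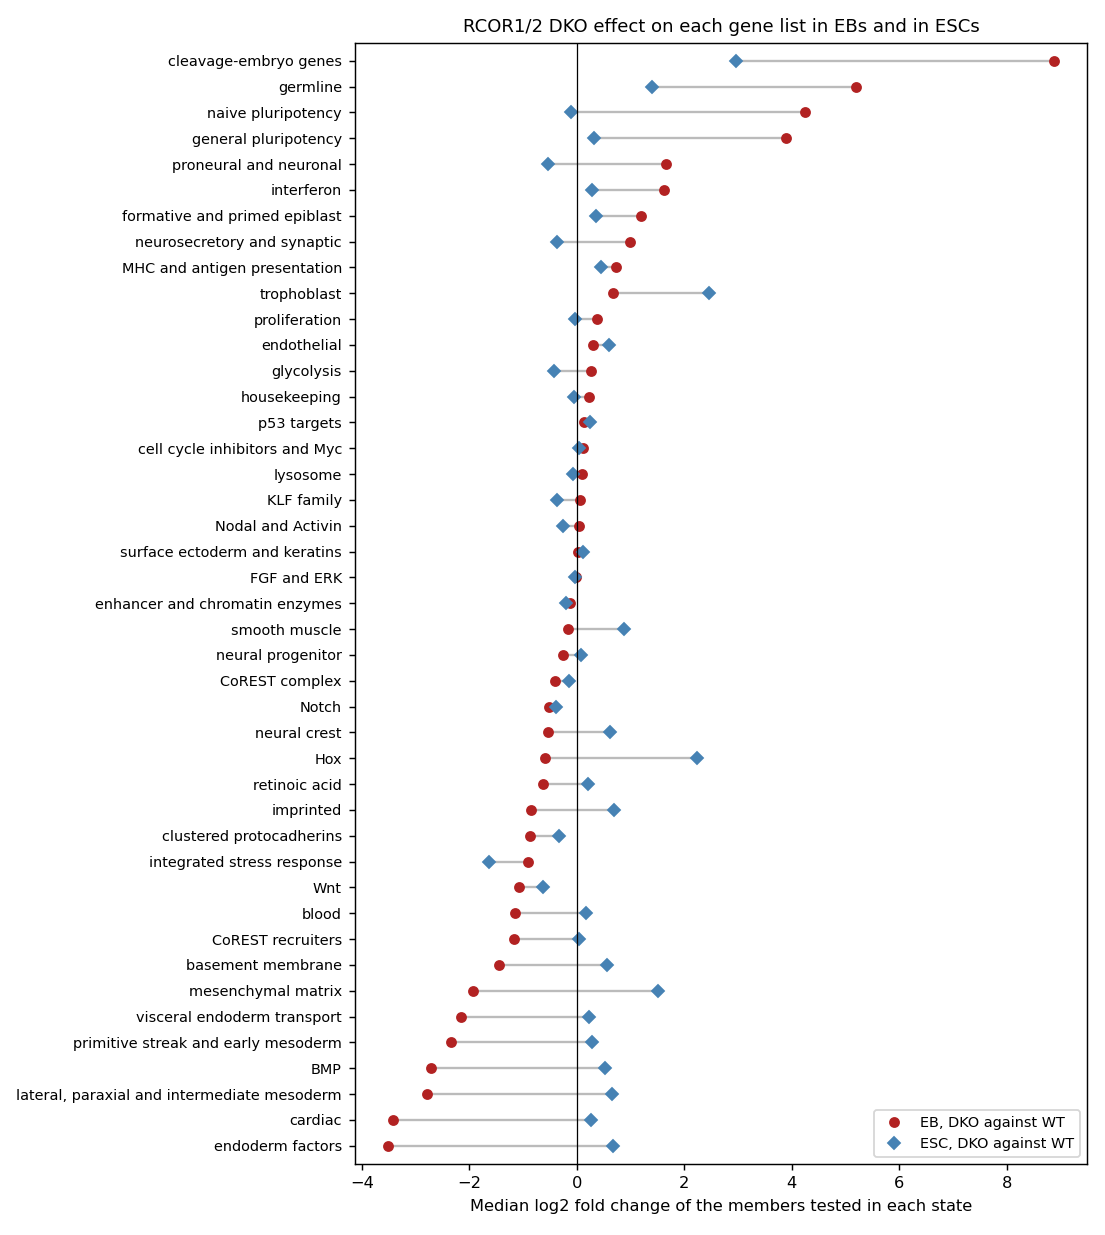
Median log2 fold change (horizontal axis) of each gene list, 1 per row, in DKO against WT EBs (circles) and in DKO against WT ESCs (diamonds), with a line joining the medians of a list. The naive pluripotency circle lies far right of its diamond, germline and cleavage-embryo genes are above zero in both states, and for the endoderm, BMP and matrix lists the circle is below zero and the diamond above it.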

How the data were processed

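RNA-seq libraries were rRNA-depleted and directional, and the deposited files hold raw counts per gene, made by the authors with Trim Galore, STAR 2.7.9a on mm9, Picard 2.25.5 duplicate removal and reverse-stranded featureCounts counting of both mates. From these counts, edgeR 4.0.16 (TMM, filterByExpr, robust quasi-likelihood fit, group as the only term) was fitted over all 23 untreated EB libraries, which share 1 estimate of the spread, and over 23 libraries for EBs against ESCs. A gene was called past an absolute log2 fold change of 1 with a p, adjusted by Benjamini-Hochberg over all genes tested, under 0.01. The study used DESeq2, which was run as an alternative (1.42.0). SE is the absolute log2 fold change over the root of F. WT ESC replicates 1 to 3 were left out of the main fit because earlier work on these files described them as aligned or counted differently, which was not tested again, and were kept in an alternative. CPM used TMM library sizes over 38 libraries of 17221431 to 58186717 counts. Scripts were tested on simulated counts. The groups, 45 gene lists and members were chosen with earlier results of these data known. Named genes were the targets and markers, the study's genes, up to 15 each way by fold change and 8 by level, up to 6 each way for other comparisons, and up to 8 per list by adjusted p; further list members, such as Eomes, Sycp3 and Hormad1, were chosen after their values were seen. Same-numbered libraries did not correlate above 0.1 throughout any comparison, so no replicate block was used in the main fits, and 74 other files of the series were not used here.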

Additional observations from a re-analysis of the deposited data

Results flagged for a closer look

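Among the 79 genes given library by library, 158 groups of WT or DKO EB libraries were examined for a library far from the others of its group, by the gap to its neighbour over the range of the group, and 11 gaps passed Dixon's critical value. Chance gives about 1 such gap in 20 groups. WT replicate 3 was the highest of its group for Apob (209 CPM), Nodal (14.1 CPM) and Zscan4d (0.0490 CPM). DKO replicate 3 was the lowest of its group for H2ac1 (16.7 CPM). DKO replicate 2 was the highest of its group for Hsp90aa1 (3019 CPM). WT replicate 2 was the highest of its group for Neurod1 (3.08 CPM), Sox1 (84.5 CPM) and Sox2 (103 CPM). DKO replicate 1 was the highest of its group for Nrp1 (1.89 CPM). DKO replicate 2 was the lowest of its group for Pou3f1 (56.2 CPM). DKO replicate 3 was the highest of its group for Rcor1 (6.64 CPM). WT replicate 2 thus stood high for neural genes, and Sox2 passed without it, with DKO higher.

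The effect of losing both scaffolds differed from the sum of the single losses for 1588 genes. Of those given in the comparison, Dnmt3a (2.05), Egfl6 (8.03), Etv5 (4.03), Fgf4 (5.05) and Lefty1 (4.37) were above the sum on the log2 scale and Acta1 (-7.45), Aplnr (-6.13), Bmp2 (-3.56), Col4a1 (-2.51), Dkk1 (-4.49), Igf2 (-4.69), Lhx5 (-8.14) and Nrp1 (-3.51) below it.

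The effect of the double knockout differed between EBs and ESCs for 3482 genes. It was more positive in EBs, on the log2 scale, for Dnmt3a (1.40), Esrrb (5.35), Etv5 (2.90), Fgf4 (6.38), Lefty1 (7.85), Nodal (2.85), Pou5f1 (4.28) and Usp26 (7.90), and more negative for Bmp2 (-7.19), Col4a1 (-4.29), Dkk1 (-8.28), Hand1 (-13.86), Igf2 (-7.67), Kdr (-6.94), Lhx5 (-7.99), Nrp1 (-11.39) and T (-4.39). Of these, Esrrb, Nodal, Pou5f1, Usp26, Hand1, Kdr and T passed for the states and not for the interaction of the scaffolds.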

How the results depend on the processing

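All 201 named genes called in DKO against WT EBs were refitted under the alternatives, and 158 kept their call in each of them. Against RCOR1KO EBs 171 of 188 named calls were kept, and between the states 135 of 157. Smaller shares were kept against RCOR2KO EBs, against LSD1KO EBs and for the interaction, each of which includes a group of 2 libraries. No gene called in DKO against WT EBs was called in the opposite direction under any alternative over all genes. The calls of Cdx1, Inhbb, Gata2, Etv4, Fli1, Hnf4a, Notum and Myc were lost in 8 or more of 22 alternatives each, and the cause was not tested. Counts for the comparison with WT ranged from 2304 to 2506 higher and from 1878 to 2302 lower when 1 library was left out, and were 1637 higher and 1682 lower with only WT replicates 6 and 7 as the reference, which leaves fewer WT libraries and was chosen after seeing the data. DESeq2 called 620 genes higher in DKO than in LSD1KO EBs and 1303 above the sum of the scaffolds, where the cause was not tested.

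Leaving out 1 library gave 93 to 271 higher and 384 to 558 lower against LSD1KO EBs, lowest without LSD1KO replicate 2. Against RCOR2KO EBs it gave 488 to 937 higher and 755 to 958 lower, lowest without RCOR2KO replicate 2. For the interaction it gave 318 to 725 above and 547 to 838 below, again lowest without that library. Ranges were 1945 to 2109 and 1771 to 1969 against RCOR1KO EBs, and 1610 to 1667 and 1573 to 1628 for EBs against ESCs.

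Same-numbered libraries correlated by -0.12 to 0.0026 between DKO EBs and WT EB replicates 1 to 4. They correlated by 0.047 to 0.24 between DKO and RCOR1KO EBs and by -0.19 to 0.059 between DKO EBs and ESCs. The numbers were therefore not taken to pair libraries, although the Y-linked genes Ddx3y, Eif2s3y and Uty shared a pattern by number. Pairing of DKO EBs with the other WT EB libraries was not tested. With a replicate block over replicates 1 and 2, DKO against LSD1KO EBs had 1012 genes higher and 1468 lower, and the interaction had 374 above and 300 below, with 490 of 1582 calls remaining. With a replicate block over replicates 1 to 4, 3625 of 4320 calls in DKO against WT EBs remained.

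Directions reversed without RCOR2KO replicate 1 for Lhx1 (range -4.68 to 0.33) and Sox17 (-3.40 to 0.79) in DKO against RCOR2KO EBs and for Lhx1 (-4.55 to 0.46) in the interaction. They also reversed for Magel2 (-2.61) between the states under the replicate block, and for Sycp1 (6.44), which was not called, in DKO against WT EBs with 2 surrogate variables. The cause was not tested. With 2 libraries each for RCOR2KO and LSD1KO EBs, smaller differences from them were not detectable.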

Other observations

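Genes were also counted by chromosome. On the 20 chromosomes with 100 or more genes tested, the share called in DKO against WT EBs ran from 24.1% on chromosome 11 to 35.6% on the X, where 138 of 665 genes were higher and 99 lower. The median log2 fold change of the X was 0.03. All 7 Y-linked genes tested were called higher in DKO EBs, although Uty (log2 fold change 1.03) lost its call in 7 of 22 alternatives.

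Zfy1, a zinc finger protein gene used in spermatogenesis, was at 0 to 0.134 CPM (median 0) in WT EBs and 12.9, 14.8, 15.7 and 9.97 CPM in DKO EBs (log2 fold change 8.18 ± 0.64 SE, adjusted p = 1.1e-09 by edgeR). It was at 6.41, 8.90, 8.87 and 10.5 CPM in DKO ESCs and at 4.81 and 4.14 CPM in LSD1KO EBs. Eif2s3y, a translation initiation factor subunit expressed broadly in male cells, was at 8.19 to 13.5 CPM (median 11.3) in WT EBs and 62.4, 90.4, 56.0 and 69.9 CPM in DKO EBs (log2 fold change 2.60 ± 0.35 SE, adjusted p = 2.4e-06 by edgeR). The DKO libraries were above every WT library for both genes. In RCOR1KO EBs Eif2s3y was at 9.12, 60.2, 10.8 and 51.3 CPM, so that replicates 2 and 4 lay above every WT library and the other two lay in the WT range. Ddx3y, an RNA helicase, was at 18.4 to 43.8 CPM (median 26.7) in WT EBs, at 69.9, 99.7, 64.6 and 99.0 CPM in DKO EBs, with replicates 2 and 4 above the others, at 69.0, 107, 65.9 and 104 CPM in DKO ESCs, and at 19.9, 60.2, 24.9 and 55.9 CPM in RCOR1KO EBs. In each of these groups replicates 2 and 4 were above replicates 1 and 3 for Uty as well.

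Tsix, the antisense partner of Xist, was at 2.74 to 6.42 CPM (median 4.41) in WT EBs and 16.6, 16.8, 19.7 and 21.2 CPM in DKO EBs (log2 fold change 2.08 ± 0.20 SE, adjusted p = 2.1e-08 by edgeR). Xist did not pass (adjusted p = 0.024 by edgeR), and was at 13.1, 14.9, 9.62, 0.836, 0.993, 0.918 and 2.63 CPM in WT EBs, where replicates 1 to 3 were above replicates 4 to 7. These genes were chosen after their values were seen, and the source of the differences was not tested.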
